A study of Mus musculus with 6 samples.

Results

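Laminin chains are described here: the 9 genes Lama1, Lama2, Lama3, Lama4, Lama5, Lamb1, Lamb2, Lamb3 and Lamc1, taken as the probe sets whose platform gene symbol is one of these names, out of 24704 named genes measured. Each gene had a single probe set, so 9 of 9 were found, and no filter on dim genes was applied. The arrays came from whole lungs of mice kept in hypoxia for 7 days. The 3 EC knockout arrays, labelled Nfat5(EC)-/-, came from mice in which the osmosensitive transcription factor gene Nfat5 had been ablated in endothelial cells (EC) by intraperitoneal tamoxifen, 1 mg per day on 5 days. The 3 control arrays, labelled Nfat5fl/fl, came from mice with the floxed alleles that were given miglyol, the solvent. All mice were adults of both sexes, aged 10 to 12 weeks at induction and rested for 2 to 3 weeks afterwards. Genotype and tamoxifen therefore differed between the groups together, and no group had tamoxifen without the deletion. The sources used here do not name the Cre driver. A design of 4 mice per group is stated, and the arrays carry the replicate numbers 1, 3 and 4; preparations with foreign tissue or with a poor expression response to hypoxia had been left out by the authors. Nothing beyond these numbers says how the animals were matched. The p-values of the fold changes weigh the difference between groups against the spread between arrays within them.

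Laminins are large secreted proteins of the basement membrane, each built from an α, a β and a γ chain that coil together inside the cell before release. The Lama genes encode α chains, whose globular ends bind integrins and dystroglycan on cells. Lamb genes encode the β chains, and Lamc1 encodes the γ chain shared by most laminins. In the lung a basement membrane lies under the airway and alveolar epithelium, around smooth muscle cells and along the endothelium, and over much of the alveolar wall the epithelial and capillary sheets are fused into a single thin layer. Lama4 and Lama5 give the main α chains of endothelial basement membranes, Lama5 also serves alveolar epithelium, and Lama3 and Lamb3 form the laminin that anchors epithelial cells.

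Of the 9 chains 3 were higher in the EC knockout lungs and 0 were lower at an adjusted p under 0.05: the α chain gene Lama5 and the β chain genes Lamb2 and Lamb3. Each was about as much higher as the others, with fold changes of 2.31, 2.36 and 2.38. Lama1, Lama2, Lama3, Lama4, Lamb1 and Lamc1 did not pass. Over all genes tested, 12.5% were higher and 13.0% lower by the same test (limma with Benjamini-Hochberg adjustment), and the count of chains has to be read against that. All 9 chains lay above the median of mean level. When only the 12352 genes above it were tested, 2880 were higher and 2908 lower, so calls were more frequent among genes of like level. The median log2 fold change was 0.33 over the 9 chains and 0.04 over all 24704 genes. All knockout arrays lay above all control arrays at 3 chains and below them at 1 (Lama4), while 5 overlapped; the groups did not overlap at 41.9% of all genes, so 4 of 9 is near the background.

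The 3 chains that passed are on chromosomes 2 (Lama5), 9 (Lamb2) and 1 (Lamb3), away from each other. Their promoter windows are shown because these 3 were called higher, beside that of Lamb1, the β chain gene that did not pass. Whether the 3 vary together within a group was not tested. The sequences are RefSeq windows of build GRCm38.p6, from 250 bases before to 50 after a gene's start, read 5′ to 3′ on the gene's strand. Capitals mark TGGAAA, the conserved start of the element that NFAT5 binds (or TTTCCA, the same letters on the other strand), and the GC box GGGCGG (or CCGCCC). The windows are chr2:180225810-180226109 on the minus strand for Lama5, chr9:108479612-108479911 on the plus strand for Lamb2, chr1:193301744-193302043 on the plus strand for Lamb3 and chr12:31265043-31265342 on the plus strand for Lamb1.
Lama5: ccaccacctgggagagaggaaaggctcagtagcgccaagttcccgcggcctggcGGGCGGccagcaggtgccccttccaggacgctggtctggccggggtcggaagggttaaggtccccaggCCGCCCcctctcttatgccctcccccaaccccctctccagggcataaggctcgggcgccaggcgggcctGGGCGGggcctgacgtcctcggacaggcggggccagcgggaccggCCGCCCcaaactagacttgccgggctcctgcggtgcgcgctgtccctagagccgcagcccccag
Lamb2: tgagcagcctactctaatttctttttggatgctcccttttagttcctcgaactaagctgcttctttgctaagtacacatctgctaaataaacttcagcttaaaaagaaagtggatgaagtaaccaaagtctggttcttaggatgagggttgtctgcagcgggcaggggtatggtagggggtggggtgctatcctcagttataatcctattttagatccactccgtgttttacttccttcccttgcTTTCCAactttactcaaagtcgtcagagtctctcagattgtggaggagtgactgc
Lamb3: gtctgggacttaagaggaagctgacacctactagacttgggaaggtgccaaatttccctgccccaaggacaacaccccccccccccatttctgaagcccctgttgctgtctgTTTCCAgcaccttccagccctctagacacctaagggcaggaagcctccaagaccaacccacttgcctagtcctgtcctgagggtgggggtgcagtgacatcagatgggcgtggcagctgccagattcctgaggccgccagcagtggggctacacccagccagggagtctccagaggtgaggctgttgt
Lamb1: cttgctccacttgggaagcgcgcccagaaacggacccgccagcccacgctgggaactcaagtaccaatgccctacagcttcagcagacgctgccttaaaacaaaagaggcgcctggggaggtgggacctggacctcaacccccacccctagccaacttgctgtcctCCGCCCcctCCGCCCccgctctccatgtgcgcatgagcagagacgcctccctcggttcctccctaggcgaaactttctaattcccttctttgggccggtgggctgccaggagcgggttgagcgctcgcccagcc

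Windows were used for 5 of the 9 genes, 6 windows in all, counting Lama2 and the other start of Lamb3. The 2 windows of Lamb3 overlap in part, so the 6 are not all separate. Chromosome 18, which holds Lama3, was left out of the search, and the reference used held no window for Lama1, Lama4 or Lamc1. The promoters of the chains that rose did not resemble each other in composition. GC content was 72.7% at Lama5, 44% at Lamb2 and 59.3% at Lamb3, against 63.7% at Lamb1 and a median of 52.7% over 32841 windows of the same length. Lama5 had 4 GC boxes and Lamb1 had 2, while Lamb2 and the Lamb3 window shown had 0; 35.7% of all windows hold at least 1. TGGAAA occurred in 3 of the 6 windows (Lamb2, Lamb3 and Lama2), against 21.4% of all windows, on either strand. The full tonicity-responsive element, of which TGGAAA is the start, occurred in 0 of the 6 and in 4.96% of all windows. The hypoxia core ACGTG also occurred in 0 of the 6, against 19.6% of all. A match describes the letters only, and its absence says nothing about more distant sequence.

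The array values bear on how the chains may be read. They are RMA log2 values normalised to common quantiles, and on each array their lower quartile is 2.02, their median 2.98 and their highest value 13.0, and with no detection calls. Probe sets differ in brightness for reasons other than abundance, so levels of different chains are not ranked. Lung identity was plain from the surfactant gene Sftpc, at 11.8 ± 0.49 in knockout and 12.2 ± 0.06 in control arrays (SD, n = 3 each), and Nfat5 itself was lower by 2.23 ± 0.23 log2 units (SE, adjusted p = 0.00151). Over all genes the correlation between arrays was 0.916 to 0.939 among knockouts and 0.968 to 0.970 among controls. Knockout replicate 4 stood apart at several chains. It was the lowest knockout array at Lama2, Lama3, Lama4, Lamb1 and Lamc1, and the highest at Lama5, Lamb2 and Lamb3. That array therefore enlarged the rises of the called chains as well as the falls. Xist was high on control replicate 1 (8.22) and 2.03 to 2.37 on the other 5 arrays, so the animals' sex was not balanced between groups by this gene.

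Lama5, the broadly expressed α chain of epithelial and endothelial basement membranes, read 6.45, 6.02 and 6.81 in knockout replicates 1, 3 and 4, against 5.21, 5.13 and 5.31 in control replicates 1, 3 and 4 on the log2 scale. All knockout arrays were above all control arrays, and the controls lay within a narrow band. Lama5 thus had a log2 fold change of 1.21 ± 0.23 (SE; adjusted p = 0.00707 with limma), with a 95% interval of 0.68 to 1.73.

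Lama4, the other endothelial α chain, did not pass. It read 5.51, 5.49 and 4.28 in the knockout arrays (replicates 1, 3 and 4), against 5.83, 5.72 and 5.77 in the controls. The groups did not overlap, but knockout replicate 4 was lower than the other knockout arrays by 1.22. The log2 fold change was −0.68 ± 0.32 (adjusted p = 0.160) with an interval of −1.41 to 0.05, and without knockout replicate 4 it was −0.27 (adjusted p = 0.350). Within each array the log2 value of Lama5 minus that of Lama4 was 0.94, 0.53 and 2.53 in the knockouts, against −0.61, −0.59 and −0.46 in the controls. This difference, which shows unequal change and not which chain is more abundant, averaged 1.33 ± 1.06 in knockouts and −0.55 ± 0.08 in controls (SD, n = 3 each). The shift of 1.88 gave p = 0.1 in a two-sided exact permutation test over the 20 splits of the arrays, the smallest p that 3 arrays against 3 allow. Every knockout array lay above the controls at Lama5 and below them at Lama4. That p was therefore fixed by the single chains and adds nothing to them.

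Lama3, the α chain of the laminin that fastens epithelial cells to their basement membrane, read 6.29, 6.53 and 5.28 in knockout replicates 1, 3 and 4, against 6.47, 6.62 and 6.36 in the controls. Knockout replicate 4 was again the low array, and the other knockout values lay at or near the control range. The log2 fold change was −0.45 ± 0.31 (adjusted p = 0.333; interval −1.16 to 0.25), and −0.08 without knockout replicate 4.

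Lama2 encodes the α chain best known from muscle and nerve, where its loss causes muscular dystrophy in mice. Its log2 values were 6.12, 5.29 and 4.17 in knockout replicates 1, 3 and 4, against 5.31, 5.70 and 5.56 in the controls. The knockout arrays spanned the control range on both sides, with an SD of 0.98 against 0.20 in the controls. The fold change of −0.33 ± 0.42 log2 units (adjusted p = 0.630) has an interval of −1.28 to 0.63, so neither a fall nor a modest rise can be told from no change, and it turned to 0.19 without knockout replicate 4.

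Lama1, an α chain used mainly in the embryo, was the dimmest member, with log2 values of 4.01, 2.95 and 3.18 in knockout replicates 1, 3 and 4, against 2.58, 3.22 and 2.78 in the controls. These lie about the arrays' median of 2.98, where background is not known. The groups overlapped, and the log2 fold change was 0.52 ± 0.30 (adjusted p = 0.247; interval −0.16 to 1.20). Without knockout replicate 1 it was 0.21.

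**Figure D1:**
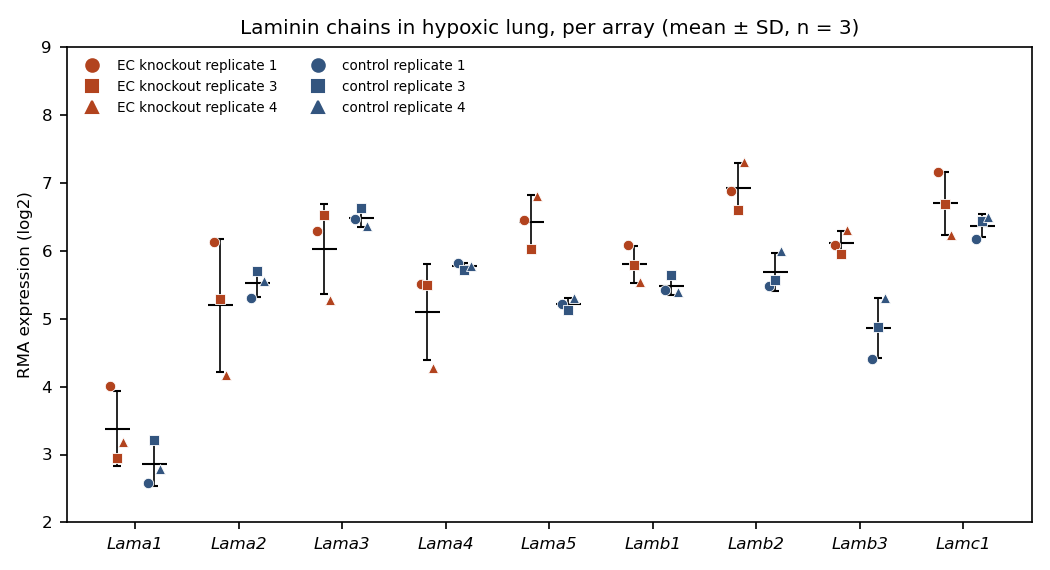
RMA expression on the log2 scale (vertical axis) of the 9 laminin chains, with EC knockout arrays left and control arrays right for each gene; points are arrays, marked by replicate number, and bars give the mean ± SD of 3 arrays. Lama5, Lamb2 and Lamb3 have every knockout array above every control array, while knockout replicate 4 lies low at Lama2 (4.17), Lama3 (5.28) and Lama4 (4.28).

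Among the β chains, Lamb2 and Lamb3 were higher and Lamb1 did not pass. Lamb2, the β chain of mature vessel walls, the kidney filter and the neuromuscular junction, read 6.87, 6.59 and 7.31 in knockout replicates 1, 3 and 4, against 5.48, 5.57 and 6.001 in the controls. The groups were separated by a gap, with replicate 4 the highest on both sides. The log2 fold change was 1.24 ± 0.25 (SE; adjusted p = 0.00797; interval 0.68 to 1.80).

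Lamb3, the β chain partner of Lama3 in epithelial anchorage, had log2 values of 6.08, 5.95 and 6.30 in the knockout arrays, against 4.41, 4.88 and 5.30 in the controls, in the same replicate order. Here the spread was on the control side, with an SD of 0.45 against 0.18 in the knockouts, and the groups did not overlap. The log2 fold change was 1.25 ± 0.25 (SE; adjusted p = 0.00864; interval 0.68 to 1.82). Its partner Lama3 had a log2 fold change of the opposite sign that did not pass. Within each array, Lamb3 minus Lama3 was −0.20, −0.58 and 1.02 in the knockouts, against −2.07, −1.75 and −1.05 in the controls. The shift of 1.70 was again at the smallest possible p (0.1, exact permutation test), and it was 1.23 without knockout replicate 4 (p = 0.2). Lamb3 alone had already separated the groups, so these p-values are not separate support.

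Lamb1, the widely used β chain and the alternative to Lamb2, read 6.08, 5.79 and 5.54 in knockout replicates 1, 3 and 4, against 5.42, 5.64 and 5.40 in the controls. Its log2 fold change was 0.32 ± 0.21 (adjusted p = 0.313), with an interval of −0.16 to 0.79 and overlapping groups. Without knockout replicate 1 it was 0.18. Lamb2 minus Lamb1 on the same array was 0.79, 0.81 and 1.77 in the knockouts, against 0.07, −0.07 and 0.60 in the controls. That shift of 0.92 had p = 0.1 (exact permutation test). With each array's trend in gene length removed it was 0.42 (exact permutation p = 0.3), and without knockout replicate 4 it was 0.60 (exact permutation p = 0.2). As Lamb2 alone had separated the groups, these p-values are not separate support.

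Lamc1, the common γ chain, had log2 values of 7.16, 6.69 and 6.24 in the knockout arrays and 6.17, 6.44 and 6.49 in the controls, in the order of replicates 1, 3 and 4. The groups overlapped, with a log2 fold change of 0.33 ± 0.26 (adjusted p = 0.398; interval −0.25 to 0.91). It was 0.10 without knockout replicate 1. Another γ chain gene on the array, Lamc3, which is not among the 9 and was picked after its values were seen, read 4.50 to 4.94 in the knockouts and 3.04 to 3.61 in the controls, a rise of 1.46 ± 0.22 log2 units (adjusted p = 0.00324).

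**Figure D2:**
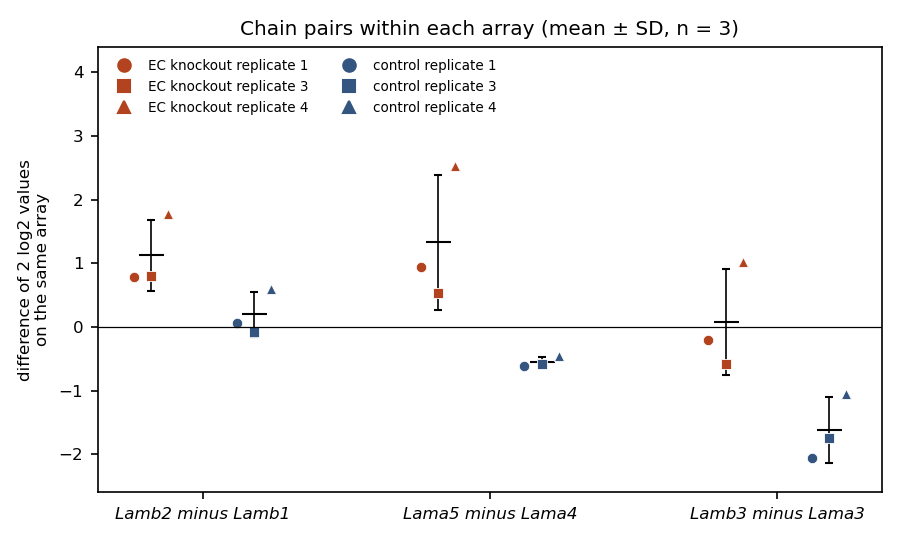
Difference between the log2 values of 2 laminin chains on the same array (vertical axis) for 3 chain pairs, with EC knockout arrays left and control arrays right; points are arrays and bars give the mean ± SD of 3 arrays. In each pair every knockout array lies above every control array, and knockout replicate 4 is the highest (1.77, 2.53 and 1.02).

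The calls of Lama5, Lamb2 and Lamb3 held under all 16 alternatives tried, including each array left out in turn. Over these alternatives the log2 fold change ran from 1.01 to 1.45 for Lama5 (adjusted p 0.00469 to 0.0411), from 1.04 to 1.41 for Lamb2 (0.00609 to 0.0490) and from 1.00 to 1.49 for Lamb3 (0.00526 to 0.0447). The highest p of each came with Xist as a covariate. Without knockout replicate 4, the array that stood apart, the values were 1.01 for Lama5, 1.05 for Lamb2 and 1.16 for Lamb3. The 16 alternatives are not independent checks. The replicate block, level filters, variance trend, unnamed probe sets and protein-coding genes left each log2 fold change as it was. They changed only its error or the adjustment. Rescaling barely moved values that were already normalised to common quantiles.

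The 3 chains that rose were also the shortest of the 9 genes. Lengths are the spans from start to end in the RefSeq table of assembly GRCm38.p6. Of the 3, Lamb2 spans 10.7 kb, Lamb3 49.5 kb and Lama5 49.5 kb. The other 6 span 64.5 kb (Lamb1), 113.9 kb (Lamc1), 125.5 kb (Lama1), 144.7 kb (Lama4), 249.6 kb (Lama3) and 635.9 kb (Lama2), and the 3 longest have the 3 negative fold changes. Across the 9 genes, which share the arrays and are not independent, fold change and length had a Spearman rho of −0.85, against −0.32 across 19686 protein-coding genes. When protein-coding genes were cut into 5 equal bins of length, the longest bin, from 60.6 kb, had a median log2 fold change of −0.33, with 5.41% of genes higher and 31.4% lower. The bin of Lama5 and Lamb3, 26.3 to 60.6 kb, had a median of −0.14, with 10.4% higher and 23.6% lower. For the bin of Lamb2, 4.79 to 12.9 kb, the median was 0.22, with 20.7% higher and 5.66% lower. Lamc3, which is not among the 9 and was higher by 1.46, spans 61.8 kb and so falls in the longest bin.

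Removing each array's trend with length by lowess left the same 3 chains past the threshold. The log2 fold change was then 1.45 for Lama5 (adjusted p = 0.00469), 1.04 for Lamb2 (0.0122) and 1.49 for Lamb3 (0.00526). The long chains moved upward: Lama4 stood at −0.30, Lama3 at −0.09 and Lama2 at −0.02. Lama1 at 0.90 (adjusted p = 0.0537), Lamb1 at 0.62 (0.0519) and Lamc1 at 0.71 (0.0656) came close to the threshold without passing it.

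**Figure D3:**
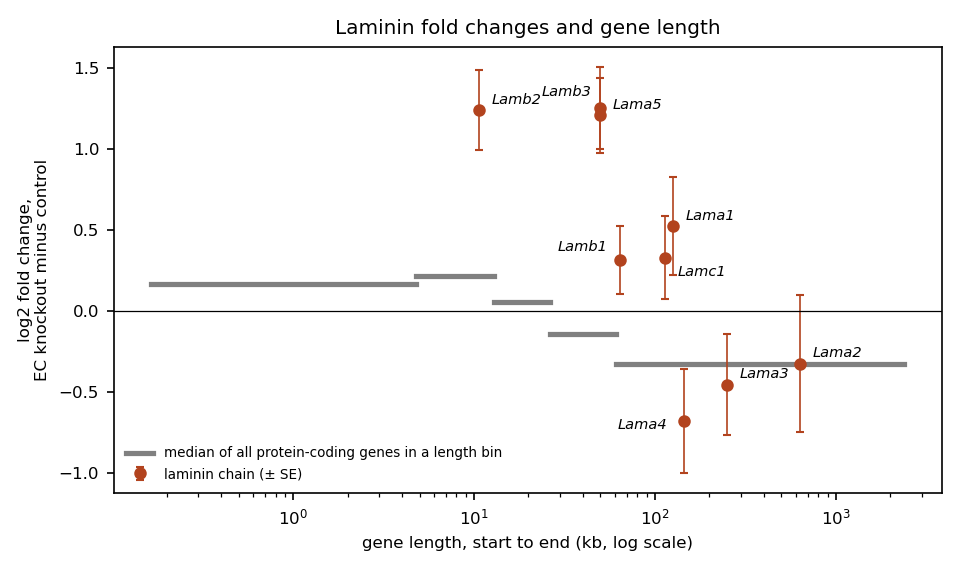
Log2 fold change, EC knockout minus control, of the 9 laminin chains (vertical axis, ± SE) against gene length in kb (horizontal axis, log scale); grey lines give the median of all protein-coding genes in each of 5 length bins. Lamb2, Lamb3 and Lama5, the 3 shortest genes, lie at 1.21 to 1.25, above the medians of their bins (0.22 and −0.14).

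Laminins act through receptors and partners, taken here from lists written with earlier results of these data known. Of 39 such genes measured 14 rose and 4 fell, and their median log2 fold change was 0.40. The share called has to be read against the 25.5% called among all genes. That share includes many dim genes. When only genes above the median of mean level were tested, 5788 of 12352 passed, and so did 20 of the 36 network genes among them. Against genes of like level the network count is therefore not read as an excess.

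Laminin receptors moved in both directions. Of 7 receptor genes 4 were higher and 2 lower. Itgb1, the integrin β subunit that pairs with most laminin-binding α subunits, read 7.29, 7.20 and 6.57 in the knockout arrays (replicates 1, 3 and 4), against 8.58, 8.47 and 8.15 in the controls. It fell by 1.38 on the log2 scale (SE 0.25, adjusted p = 0.00526). The laminin-binding subunit Itga6 also fell, by 1.37 (SE 0.36, adjusted p = 0.0237). By contrast Bcam, a surface receptor for the Lama5 chain, rose by 1.37 ± 0.21 log2 units (adjusted p = 0.00311), with 8.50, 8.62 and 8.90 in the knockouts against 7.10, 7.28 and 7.53 in the controls. All knockout arrays were above all controls. Itga7, the laminin receptor of muscle cells, rose by 1.45 ± 0.21 (adjusted p = 0.00272). The epithelial subunits Itgb4 (1.05 ± 0.22, adjusted p = 0.00993) and Itga3 (0.90 ± 0.28, adjusted p = 0.0442) also rose, while dystroglycan (Dag1) stood at 0.17 ± 0.20 (adjusted p = 0.599).

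Of 22 other basement membrane genes 6 rose and 1 fell; their median log2 fold change was 0.33. Hspg2, encoding perlecan, the large heparan sulfate proteoglycan, read 7.78, 7.24 and 8.07 in the knockouts, against 5.93, 5.89 and 6.31 in the controls, a rise of 1.65 ± 0.25 log2 units (adjusted p = 0.00324). Col4a1 and Col4a2, which encode the collagen of all basement membranes and lie head to head on the genome, rose by 1.07 ± 0.20 and 1.62 ± 0.20. Agrin (Agrn), which links laminin to dystroglycan, rose by 1.06 ± 0.25 (adjusted p = 0.0155), Tinagl1 by 0.88 ± 0.22 and Col15a1 by 0.74 ± 0.22. Frem1, an extracellular protein of embryonic epithelial basement membranes, was lower, with a log2 fold change of −1.23 ± 0.27 (adjusted p = 0.0117). The nidogens, which bridge laminin to collagen IV, did not pass: Nid1 stood at −0.43 ± 0.21 (adjusted p = 0.174) and Nid2 at −0.16 ± 0.23 (adjusted p = 0.670).

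Among 5 hemidesmosome genes, whose products tie keratin filaments to the laminin of Lama3 and Lamb3, 3 were higher and 1 lower. The cytoskeletal linker Plec rose by 1.67 ± 0.21 log2 units (adjusted p = 0.00221), the transmembrane collagen Col17a1 by 1.44 ± 0.34 (0.0161) and the tetraspanin Cd151 by 0.76 ± 0.24 (0.0435). Dst, the other plakin linker, was lower, at 4.23, 4.48 and 3.41 in the knockout arrays against 5.44, 5.42 and 5.55 in the controls, a log2 fold change of −1.43 ± 0.28 (adjusted p = 0.00725). Of 5 genes measured for the sugar chain by which dystroglycan binds laminin, Pomgnt1 rose by 0.87 ± 0.23 (adjusted p = 0.0224), and the others ran from −0.35 to 0.44 without passing.

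Of the 18 network calls 8 held under all 16 alternatives: Itga7, Itgb1, Bcam, Hspg2, Col4a1, Col4a2, Dst and Plec. Leaving out control replicate 1 or control replicate 3 took 9 calls each, and 8 genes were lost in both cases (Itga3, Itga6, Itgb4, Agrn, Col15a1, Tinagl1, Cd151 and Pomgnt1). Frem1 was lost without control replicate 1 and Col17a1 without control replicate 3. With length trends removed 20 network genes passed, 17 higher and 3 lower, of which 15 were among the 18. The 5 gained were Col4a3 (0.75), Col4a4 (0.99), Col4a5 (0.77), Col18a1 (1.02) and Smoc1 (0.92), all higher, with adjusted p from 0.0101 to 0.0188. In the same setting Itga6 (−1.05, adjusted p = 0.0506), Cd151 (0.47, adjusted p = 0.153) and Pomgnt1 (0.65, adjusted p = 0.0566) did not pass.

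**Figure D4:**
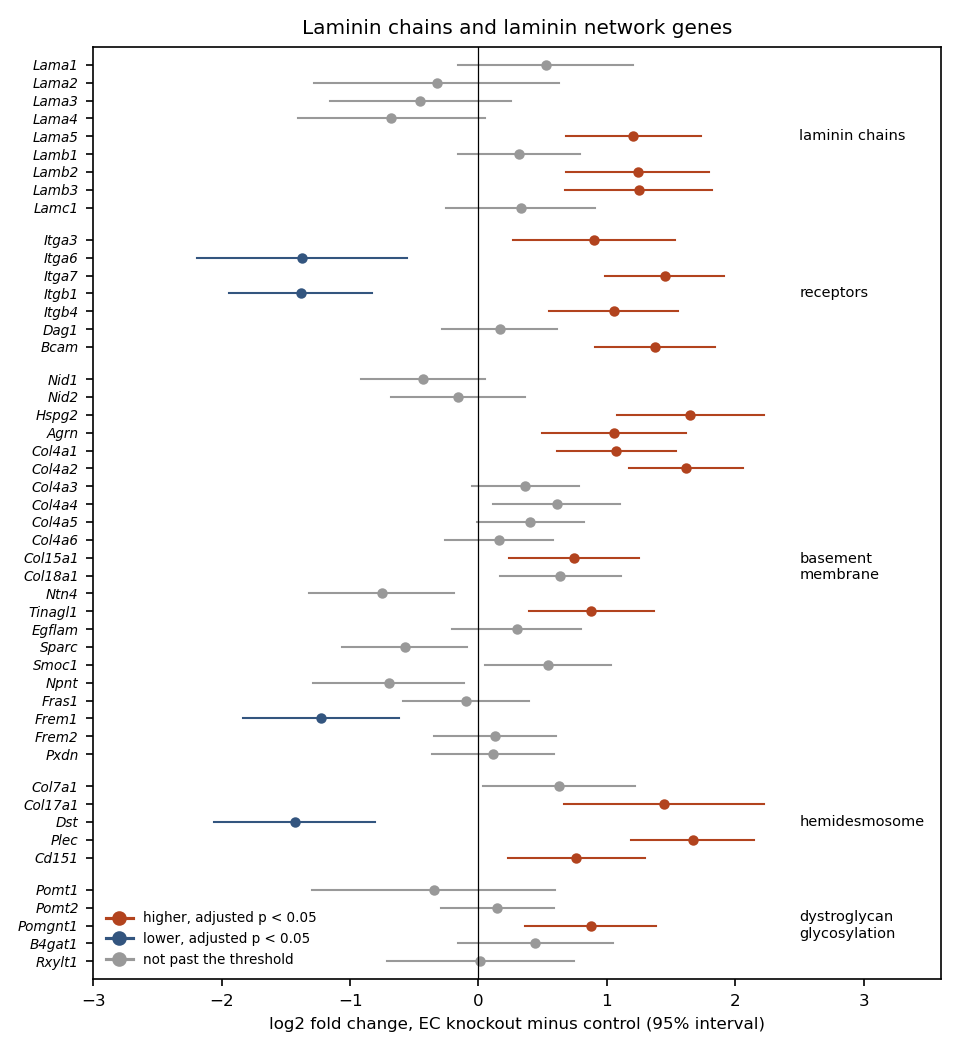
Log2 fold change, EC knockout minus control (horizontal axis), of the 9 laminin chains and 39 network genes, with 95% intervals from limma; colours mark genes past an adjusted p of 0.05. Of the laminin chains 3 lie to the right with intervals above 0, and the network genes include 14 higher and 4 lower.

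By a fixed measure, the root mean square difference of control-centred log2 values over the 6 arrays, the genes most like Lamb3, the called chain with the largest rise, were Rpl8 (0.06), Tmem109 (0.10) and Dmpk (0.11) among 12351 other genes above the median level. The measure is dominated by the difference between groups, and no chain was called lower, so none was searched for a fall.

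Several cell types make laminins, and in whole lung fewer cells of a type and less RNA per cell cannot be told apart. Of 16 endothelial markers 6 were higher and 5 lower, and their summed linear level was 2725 to 2878 in knockout arrays against 3479 to 4248 in controls. For the alveolar type 1 list 2 of 8 markers rose and 3 fell, with sums of 2362 to 3117 in knockouts and 2217 to 2809 in controls. Of 8 airway epithelial markers 1 rose and 0 fell, summing to 5110 to 7036 in knockouts against 8314 to 9616 in controls. Smooth muscle gave 1 higher and 0 lower of 8 (598 to 717 in knockouts, 411 to 616 in controls). Mesothelium gave 1 higher and 0 lower of 5 (221 to 259 in knockouts, 114 to 156 in controls). Of 6 heart muscle markers 2 rose and 0 fell, with sums of 268 to 488 in knockouts against 196 to 252 in controls. Of 10 alveolar type 2 markers 1 rose and 3 fell, summing to 6477 to 10103 in knockouts against 11341 to 12834 in controls. Macrophage markers, 5 of them measured, gave 0 higher and 2 lower (79.9 to 193.6 in knockouts, 266.2 to 347.6 in controls). For pericytes 3 of 8 rose and 2 fell (381.4 to 542.3 in knockouts, 433.0 to 468.7 in controls), and for fibroblasts 2 of 8 rose and 1 fell (956.1 to 1144 in knockouts, 982.5 to 1069 in controls). Of 7 thymus markers 1 rose and 1 fell (46.3 to 56.1 in knockouts, 38.4 to 54.2 in controls), and neither of the 2 Schwann cell markers measured passed (9.71 to 12.9 in knockouts, 7.07 to 9.74 in controls). Shares near the 12.5% higher and 13.0% lower among all genes, such as 1 of 8, are background counts. Linear sums are weighted to the brightest markers of a list. In the airway list Scgb1a1 averaged 11.9 on the log2 scale in knockouts and 12.5 in controls (limma adjusted p = 0.0524). In the alveolar type 2 list Sftpc averaged 11.8 and 12.2 (limma adjusted p = 0.254). Neither passed. In the endothelial list, where 6 markers were higher and 5 lower, Pecam1 was lower, at 7.90 in knockouts and 9.48 in controls (limma adjusted p = 0.0111). Medians over a list can differ in sign from its sum. The median log2 fold change was 0.38 for the airway, −0.36 for the alveolar type 2 and 0.41 for the endothelial list. The part of the cell type markers in the laminin values was not tested. No marker is at 0 on these arrays, since RMA gives every probe set a value.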

How the data were processed

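Whole-lung RNA was measured on 6 single-colour Affymetrix arrays labelled with biotin. The authors deposited log2 expression values per probe set, made with RMA according to the submitters' processing notes, with a version not given in the sources used here. Platform annotation named 24705 of 25428 probe sets and left 723 unnamed, and the brighter probe set of the 1 repeated symbol was used, which gave 24704 genes.

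EC knockout and control arrays were compared by lmFit and eBayes of limma 3.58.1 (R 4.3.3); p-values were adjusted after Benjamini and Hochberg across the 24704 genes, with 0.05 as threshold. Errors are moderated standard errors and intervals are 95%. The procedure was tested on simulated data. The number of arrays limits the precision. Chain pairs were compared with two-sided exact permutation tests. Each pair set a chain called higher against a chain that did not pass. Gene lengths came from RefSeq, and length trends were removed per array by lowess (span 0.3) over 19686 protein-coding genes. The laminin chains and the network and marker lists were chosen with earlier results of these data known. Named were all chains, network genes past the threshold and a few network genes that did not pass. Also named were 3 genes most like the called chain with the largest rise. Dag1, Nid1, Nid2, Lamc3, Sftpc, Scgb1a1 and Pecam1 were named outside that rule. Network list members without a probe set symbol are not analysed here. Alternatives covered a replicate block, Xist as a covariate, length, level filters, variance trend, array weights, probe sets, protein-coding genes, scaling and each array left out.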

Additional observations from a re-analysis of the deposited data

How the results depend on the processing

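The call of 3 laminin chains, all higher, was the same under all 16 alternatives, which are not independent checks. Lama2 reversed, from −0.33 to 0.19, without knockout replicate 4, and ran from −0.79 to 0.19 over the arrays left out. With Xist as a covariate 2827 genes of all tested passed, against 6292, and 9 network genes, against 18. This covariate mostly sets control replicate 1 apart, so it is not a check separate from leaving that array out. Leaving out 1 array gave 2882 to 6155 genes and 9 to 19 network genes, the lowest without control replicate 3 (2882 genes) and next without control replicate 1 (3141), while leaving out a knockout array gave 5686 to 6155; the cause was not tested. With the replicate block 6082 genes, 3 laminin chains and 19 network genes passed. Same-numbered arrays did not deviate together (correlations of −0.01 to 0.06 over genes), so the numbers were not taken as pairs. The chain pair shifts kept their sign under every alternative run. With no detection calls, changes in dim genes such as Lama1 may have been missed.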
